A study of Mus musculus with 16 samples.

Results

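The question here is which RNAs anti-MYF5 recovered over control IgG to a different extent in differentiation medium (DM) than in growth medium (GM). The measure was the medium dependence of recovery, the log2 difference of anti-MYF5 minus IgG in DM minus the same difference in GM. It was read over 8139 genes, of 16590 on the array, which were represented by 11831 of its 25697 probes. Each such member probe had a detection p under 0.05 on 4 or more of 8 DM arrays and on 4 or more of 8 GM arrays, and 10251 were detected on all 16 arrays. The choice of members used detection only, not the size of any difference.

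MYF5 is a basic helix-loop-helix factor that marks muscle precursor cells and is best known for binding DNA at muscle genes. RNA immunoprecipitation asks which RNAs an antibody pulls down from an extract, and an IgG precipitation from the same kind of extract gives the background of RNA that sticks to beads and antibody. C2C12 is a mouse myoblast line that leaves the cell cycle and fuses into contractile myotubes when serum is lowered, so the RNA offered to the antibody differs greatly between the 2 media.

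The 4 groups, each with 4 arrays, were anti-MYF5 in DM, IgG in DM, anti-MYF5 in GM and IgG in GM. DM held 2% horse serum and GM held 10% fetal bovine serum, and in all groups the RNA came from a cytoplasmic extract of the unmodified line. The labels give no time in DM and do not say whether replicates were separate cultures, so p-values measure the spread between these samples, which may be technical. The input RNA of the extracts was not analysed here, so that recovery is known only relative to IgG. In such bulk samples, fewer cells of a type and less RNA per cell cannot be told apart.

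Mean signal per array was 324 to 581 and 46.4% to 50.9% of probes were detected. The lowest mean signal was that of IgG array 4 in GM, which also stood apart in the log2 gap between the brightest and the dimmest Actb probe, at 4.21 against 6.56 to 7.62 on the other 3 IgG arrays in GM. That gap averaged 2.61 ± 0.76 with anti-MYF5 and 4.73 ± 0.81 with IgG in DM, and 3.94 ± 0.52 with anti-MYF5 and 6.42 ± 1.53 with IgG in GM (SD, n = 4 each). Its own medium dependence was 0.36, and its part in the results was not tested. Probes for Myh4, Ckm, Mymk and Tnnt3, which myotubes express, were detected on 8 of 8 DM arrays and 0 of 8 GM arrays. Other myotube markers were less exclusive: Acta1 was detected on 8 of 8 GM arrays, and the Myog probes on 3 and 4. With IgG, the DM minus GM difference was 7.59 for Acta1 and 2.82 and 5.97 for Myog. Among myoblast markers it was -2.89 for Msc, 0.18 for Myod1 and 1.97 for Des. The 1 Myf5 probe reached detection on a single array (signal 54.2 to 83.3 over the 16 arrays), so Myf5 is no member.

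Recovery was broadly alike in the 2 media. Over the member probes, anti-MYF5 minus IgG in DM and in GM correlated at r of 0.854 (Spearman's rho 0.846), a description across 11831 probes that share arrays within each medium but none between media. In DM 3495 members were higher with anti-MYF5 and 3293 lower (29.5% and 27.8%, against 26.7% and 26.2% over all tested probes), and in GM 3484 were higher and 2908 lower (29.4% and 24.6%, against 26.7% and 22.1%; limma, Benjamini-Hochberg adjusted p under 0.05). Of the 5006 members called in both media, 4964 were called in the same direction.

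Against that background, 543 member probes (4.59%) differed between the media: 255 were recovered more in DM (2.16%) and 288 less in DM (2.43%), at an adjusted p under 0.05 over all 13884 tested probes. With each gene read at its brightest member probe, 186 genes were higher and 192 lower (2.29% and 2.36% of member genes). Over all tested probes the share called was 5.67% (2.32% higher and 3.35% lower), and among the 2053 tested probes outside the rule it was 11.9%, with 67 higher and 177 lower. The difference had a median size of 0.74 log2 among the called members and 0.22 among all members, for which the median SE was 0.20. At least 1 log2 was reached by 22 probes called higher and 45 called lower. An unadjusted p under 0.05 (limma) was reached by 2372 of the 11831 member probes, the background for such counts in the lists below.

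The split between the directions rested on the scaling between arrays. With median scaling 35 members were called higher and 537 lower, without scaling 7 and 892, and in the deposited z-scores 324 and 792. Median scaling moved the median difference of all members to -0.23 and no scaling moved it to -0.42, against 0.01 after quantile normalization. All differences below are therefore relative to the other RNAs on the arrays. Of the 543 calls, 540 had the same sign under all 5 scalings of the log2 signals, and 211 were called under all 5. Of the named genes higher in DM, Atrip, Blm and Smarcal1 kept their calls without scaling. Leaving out 1 array gave 125 to 497 members higher and 128 to 555 lower. The lowest counts came without IgG array 3 in DM and without anti-MYF5 array 2 in DM, and both highest counts without IgG array 4 in GM, when 530 of the 543 calls remained. In all 16 such fits together, 206 calls remained and 543 of 543 signs held.

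**Figure D1:**
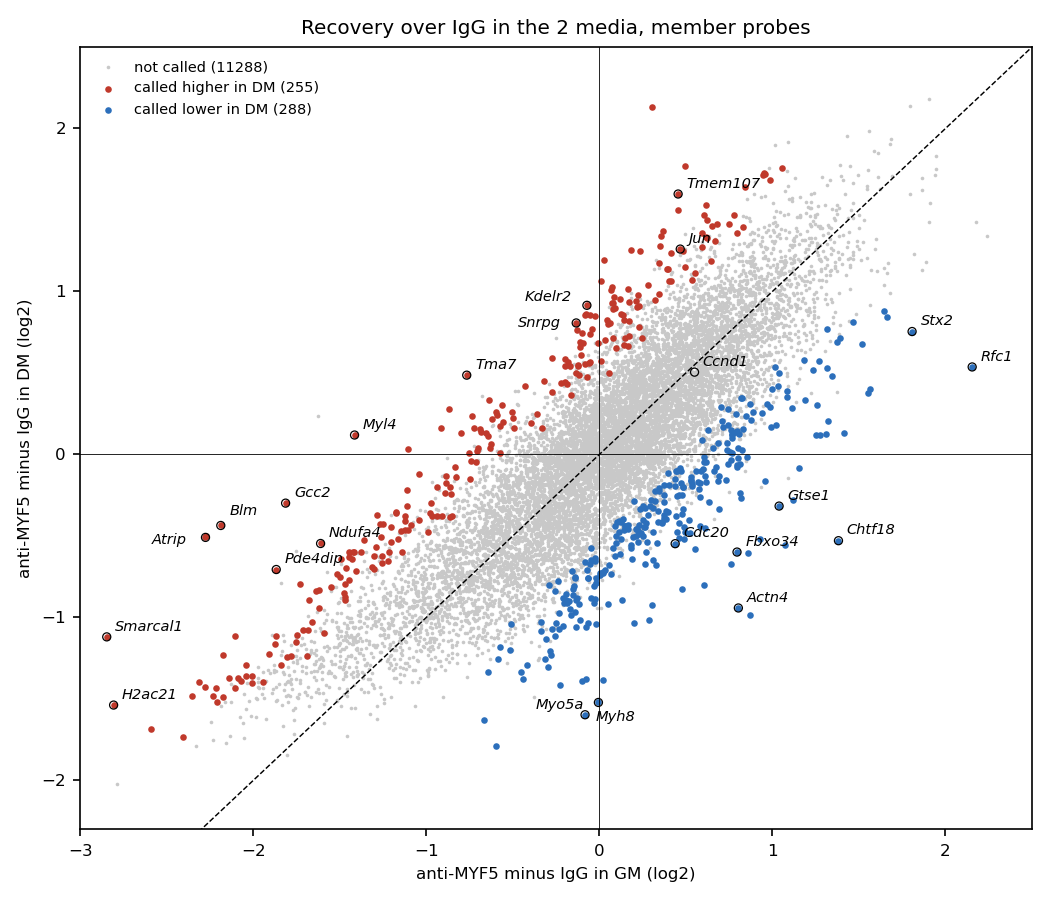
Each point is 1 member probe. The x axis is anti-MYF5 minus IgG in GM and the y axis the same difference in DM, both in log2. The dashed line marks equal recovery, and colours mark the 255 probes called higher in DM and the 288 called lower. Most probes lie along the line, and the called ones form a band on either side of it.

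The called members differed in kind. Of the 288 lower in DM, 114 were below IgG in DM with no call in GM, 95 were above IgG in GM with no call in DM, 39 were below IgG in DM and above it in GM, 29 were above IgG in both media and 11 below IgG in both. Of the 255 higher in DM, 95 were below IgG in both media, less so in DM. A further 73 were above IgG in DM only, 45 below IgG in GM only, 39 above IgG in both and 3 above in DM and below in GM. Signal level touched some of them. Both DM group means lay under a normalized log2 value of 6 for 33 called members whose GM means did not, out of 707 such members. Both GM means did so for 31 called members whose DM means did not, out of 457. In both media the means lay under 6 for 39 called members, 15 higher and 24 lower, out of 1589. Over all members 543 of 11831 were called. Undetected probes had a median of 4.40 there, so log2 differences near this level are compressed. Just inside the detection rule, 26 of 327 probes were called, and just outside it 20 of 350.

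Among the largest called differences were those of several mRNAs for proteins that work at replication forks, a grouping made after the values were seen. Chtf18 encodes a subunit of a clamp loader that helps to join sister chromatids, and Rfc1 a subunit of the complex that places the sliding clamp PCNA on DNA. On the normalized log2 scale, Chtf18 (ILMN_1232175) stood at 4.71, 5.05, 5.00 and 4.92 with anti-MYF5 in DM, against 5.32, 5.61, 5.48 and 5.38 with IgG in DM. In GM it stood at 9.01, 9.50, 9.26 and 8.99 with anti-MYF5, against 7.66, 7.80, 7.89 and 7.88 with IgG. Anti-MYF5 arrays were thus all below IgG arrays in DM and all above them in GM, a medium dependence of -1.91 (SE 0.19, adjusted p = 7.9e-06). The DM values were close to the floor, with raw signals of 69.3 to 73.7 with anti-MYF5 and detection on 3 of these 4 arrays.

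Rfc1 (ILMN_1240620) was recovered above IgG in both media, 1.45-fold in DM and 4.45-fold in GM. Its values were 9.42, 9.60, 9.42 and 9.08 with anti-MYF5 in DM, against 9.06, 8.90, 8.93 and 8.49 with IgG. They were 11.47, 11.35, 11.35 and 11.27 with anti-MYF5 in GM, against 9.27, 9.08, 9.22 and 9.26 with IgG. The groups overlapped in neither medium, and the medium dependence was -1.62 (SE 0.18, adjusted p = 2.1e-05). Gtse1, a mitotic spindle protein that also restrains p53, was higher with anti-MYF5 in GM (11.71, 11.66, 11.98 and 11.25, against 10.52, 10.61, 10.75 and 10.54 with IgG) with no call in DM, where the groups overlapped. Its medium dependence was -1.36 (SE 0.19, adjusted p = 2.4e-04), and a second probe gave -1.40. That second probe was close to the floor in DM, at raw signals of 70 to 90.8, so a DM difference could hardly be measured there.

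The mRNAs of 3 proteins that respond to stalled forks went the other way. Atrip encodes the partner that brings the ATR kinase to single-stranded DNA, Blm the helicase lost in Bloom syndrome, and Smarcal1 an enzyme that reverses forks. Atrip (ILMN_1225014) stood at 6.64, 6.62, 6.43 and 6.76 with anti-MYF5 in DM against 6.97, 7.22, 7.16 and 7.15 with IgG. In GM it stood at 7.07, 7.13, 7.08 and 7.27 with anti-MYF5 against 8.92, 9.69, 9.17 and 9.88 with IgG. Anti-MYF5 lay below IgG in both media without overlap, by 1.42-fold in DM and 4.85-fold in GM, which gives a medium dependence of 1.77 (SE 0.23, adjusted p = 7.7e-05).

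Blm (ILMN_2774640) had 6.38, 5.90, 6.09 and 6.22 with anti-MYF5 in DM against 6.76, 6.22, 6.73 and 6.63 with IgG. It had 8.70, 8.93, 8.83 and 8.78 with anti-MYF5 in GM against 10.76, 10.99, 11.01 and 11.25 with IgG. The gap to IgG was wide and free of overlap in GM and narrow and overlapping in DM. The difference was 1.75 (SE 0.20, adjusted p = 2.6e-05), and its second probe, ILMN_3150996, gave 1.77. With anti-MYF5 in DM that second probe was close to the floor, at raw signals of 75.6 to 91.2, which limits its measured difference. Smarcal1 (ILMN_2843698) was below IgG 2.17-fold in DM and 7.20-fold in GM, with a medium dependence of 1.73 (SE 0.21, adjusted p = 5.4e-05). Its values were 7.30, 7.43, 7.21 and 7.43 with anti-MYF5 in DM against 8.61, 8.49, 8.30 and 8.45 with IgG, and 7.54, 7.95, 7.52 and 7.94 with anti-MYF5 in GM against 10.29, 10.62, 10.37 and 11.05 with IgG. The anti-MYF5 arrays of the 2 media lay close together, and the IgG arrays did not: the DM minus GM difference was -0.39 with anti-MYF5 and -2.12 with IgG.

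In a list of ATR signalling and fork repair genes drawn up after these values were seen, 4 of 18 member genes were higher (Smarcal1, Blm, Atrip and Etaa1, an activator of ATR, at 0.86) and 1 lower (Rpa1, the large subunit of the single-strand binding protein, at -0.71). The list median was 0.08, against 0.02 over all member genes, of which 2.29% were called higher and 2.36% lower.

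**Figure D2:**
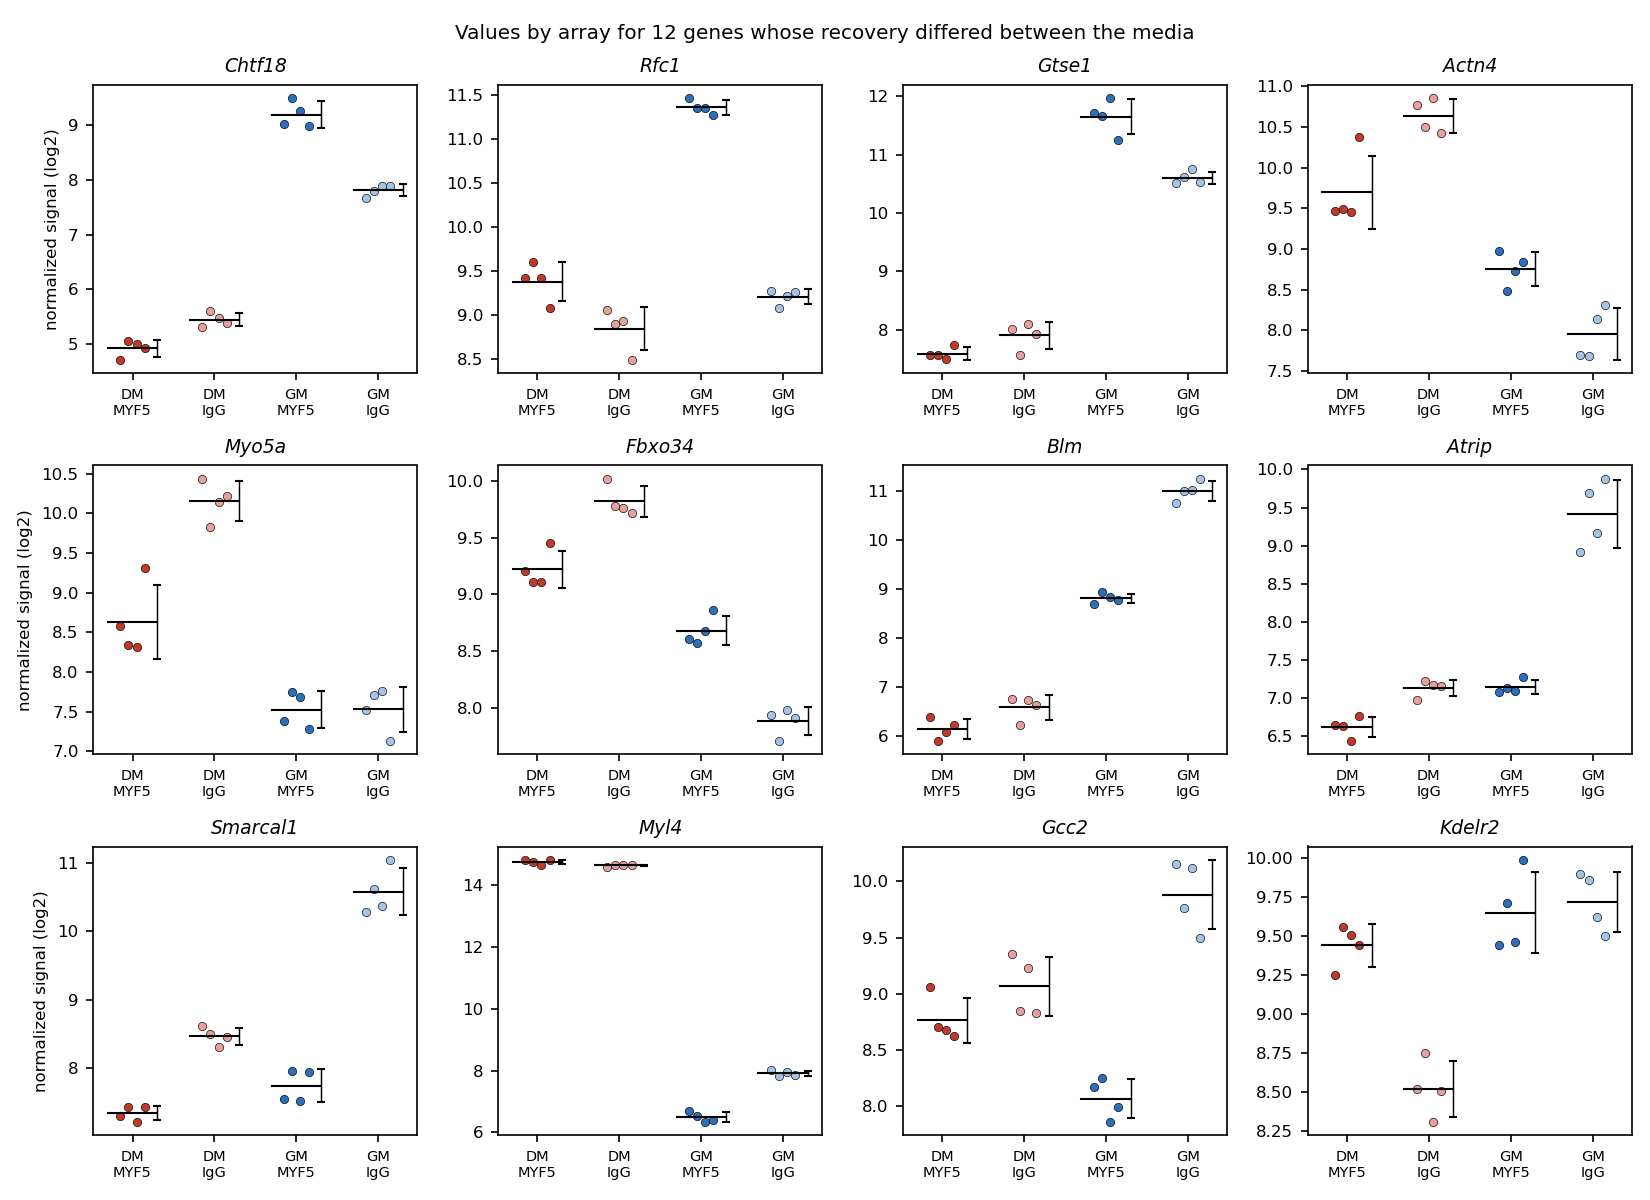
Normalized log2 signal on each of the 16 arrays for 12 genes, 1 panel each, with anti-MYF5 in DM, IgG in DM, anti-MYF5 in GM and IgG in GM from left to right. Dots are arrays, long bars group means and error bars the SD (n = 4). In Chtf18, Actn4 and Fbxo34 the order of anti-MYF5 and IgG is opposite in the 2 media. In Atrip, Blm and Smarcal1 the IgG group in GM stands above the rest.

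Among 38 member genes of S phase and mitosis, 0 were higher and 5 lower, with a list median of -0.27. At an unadjusted p under 0.05 (limma) the counts were 2 and 12, where 2372 of all 11831 member probes passed in either direction. With cyclic loess 2 were called higher and 3 lower. The 5 were Rfc1, Cdc20, the helicase subunits Mcm5 (-0.97) and Mcm2 (-0.52) and the mitotic kinase Plk1 (-0.51). Cdc20, which activates the anaphase-promoting complex, had 8.27, 8.27, 8.43 and 8.54 with anti-MYF5 in DM against 9.0, 8.62, 9.14 and 8.93 with IgG. It had 12.04, 11.95, 12.06 and 11.91 with anti-MYF5 in GM against 11.41, 11.44, 11.66 and 11.68 with IgG. The groups were apart in both media and in opposite order, a difference of -0.99 (SE 0.16, adjusted p = 8.0e-04). Of 3 further Cdc20 probes, 1 was called and all had negative differences, -0.94, -0.74 and -0.72. The count of lower genes in this list was 3 without anti-MYF5 array 1 in DM and 8 without IgG array 2 in DM.

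A change of direction with the medium was called for 42 member probes. Of these, 39 probes, for 33 genes, were above IgG in GM and below it in DM, and 3 were the reverse. Besides Chtf18 and Cdc20, the probes above IgG in GM and below it in DM included 2 of the 3 for Actn4, which encodes the actin cross-linker alpha-actinin 4. Actn4 (ILMN_2673599) had 9.47, 9.49, 9.45 and 10.37 with anti-MYF5 in DM against 10.77, 10.50, 10.86 and 10.42 with IgG. It had 8.97, 8.48, 8.73 and 8.84 with anti-MYF5 in GM against 7.69, 7.68, 8.14 and 8.31 with IgG. No groups overlapped within a medium, and the medium dependence was -1.75 (SE 0.27, adjusted p = 3.7e-04), with -1.86 and -1.13 at its other probes.

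Fbxo34, an F-box protein, showed the same pattern at 3 probes, with differences of -1.39, -1.43 and -1.47. Its brightest (ILMN_2747552) had 9.21, 9.11, 9.11 and 9.45 with anti-MYF5 in DM against 10.02, 9.78, 9.76 and 9.72 with IgG, and 8.61, 8.57, 8.68 and 8.86 with anti-MYF5 in GM against 7.94, 7.71, 7.98 and 7.91 with IgG. Cep41, a centrosomal protein tied to tubulin modification in cilia, was 1.74-fold below IgG in DM and 1.52-fold above it in GM (difference -1.40, SE 0.19, adjusted p = 1.2e-04). Denn2b, a DENN domain protein, differed by -1.02 at each of 2 probes (adjusted p = 0.0066 and 0.0026). Sec23b, part of the COPII coat that buds vesicles from the ER, differed by -1.0 (SE 0.17, adjusted p = 0.0012) at its brighter probe and by -0.12 at a dim one that was not called.

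The 3 probes of the reverse kind were those for Tma7, Rps27 and Gzmd. Tma7, a small protein associated with translation in yeast, had 8.10, 8.08, 8.10 and 7.26 with anti-MYF5 in DM against 7.63, 7.42, 7.07 and 7.47 with IgG. In GM it had 7.53, 7.41, 7.06 and 7.44 with anti-MYF5 against 8.58, 8.22, 7.92 and 7.80 with IgG. The groups were apart in GM only, anti-MYF5 array 4 being low in DM, and the medium dependence was 1.25 (SE 0.27, adjusted p = 0.011), a call that median scaling (0.96) and no scaling ended. Rps27, a protein of the small ribosomal subunit, differed by 0.61 (SE 0.13, adjusted p = 0.0093). Gzmd, a granzyme, differed by 0.85 (SE 0.24, adjusted p = 0.042) at group means of 4.91 to 5.43, close to the floor, and lost its call when any 1 of 11 arrays was left out, with no scaling, with no filter and with only members tested, and its other probe was not called.

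Several genes of the actin cytoskeleton and its motors were recovered less in DM. Of 42 member genes for actin cytoskeleton and adhesion, 0 were higher and 5 lower: Actn4, the non-muscle myosin Myh10 (-1.19), Actn1 (-0.70), Actb (-0.54) and the focal adhesion protein Zyx (-0.50). The list median was -0.11, and 0.0075 in the deposited z-scores. At an unadjusted p under 0.05, 3 genes were higher and 9 lower. Myo5a, the myosin that carries cargo along actin, had 8.58, 8.34, 8.31 and 9.31 with anti-MYF5 in DM against 10.44, 9.83, 10.15 and 10.22 with IgG, while its groups overlapped in GM at 7.28 to 7.75 with anti-MYF5 and 7.13 to 7.76 with IgG. Its medium dependence was -1.52 (SE 0.27, adjusted p = 0.0021). Dbn1, which encodes the actin-binding protein drebrin, was 2.62-fold below IgG in DM and had no call in GM (difference -1.29, SE 0.26, adjusted p = 0.0061). Its GM signals were dim, at 94.1 to 130.1 before normalization, where log2 differences are compressed. In Actn4, Myo5a, Dbn1 and Myh10, anti-MYF5 array 4 in DM was the highest of its group and nearest to IgG.

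The 5 Actb probes did not give the same answer. The brightest, ILMN_2698799, differed by -0.54 (SE 0.14, adjusted p = 0.03), a call that ended with median scaling, cyclic loess, no scaling, no filter, no intensity trend and when any 1 of 8 arrays was left out. In the deposited z-scores its difference was 0.023. The others differed by -1.24, -0.90, -0.75 and -0.38 and were not called. In 3 of those 4, the anti-MYF5 minus IgG difference in GM was positive (1.09, 2.24 and 2.18), where it was -0.24 at the brightest probe.

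Of 25 member genes of the sarcomere, 4 were called lower and 3 higher in DM, with a list median of -0.19. The 4 lower ones were near the floor in GM, and 2 of the 3 higher ones were among the brightest probes in DM, so the measured differences of these 6 are limited by the signal range. The lower ones were Myh8 (-1.51), a myosin heavy chain of developing muscle, Unc45b (-1.02), the chaperone that folds myosin, Xirp1 (-0.94), which binds actin at cell junctions, and Nrap (-0.78), which takes part in myofibril assembly. The higher ones were Myl4 (1.53), an embryonic myosin light chain, skeletal alpha-actin Acta1 (1.14) and beta-tropomyosin Tpm2 (0.49). Tmod4, which caps the pointed ends of actin filaments in muscle, was lower by this measure at 2 probes (-1.31 and -0.97). With anti-MYF5 in DM these had raw signals of 75.5 to 111 and 71 to 96.8, close to the floor. The second also had only 72.9 to 97.1 in GM, so both differences are limited by the signal range.

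Myh8 (ILMN_2978038) had 10.41, 10.00, 10.05 and 11.01 with anti-MYF5 in DM against 12.19, 11.86, 12.04 and 11.78 with IgG. In GM it had 4.99, 4.79, 5.11 and 4.97 with anti-MYF5 against 5.23, 5.07, 4.78 and 5.11 with IgG. The GM values lay near the floor, with mean raw signals of 80.8 and 80.7 and detection on 3 of 4 arrays in each group, so a GM difference could hardly be measured. The same held for Nrap, at 4.79 with anti-MYF5 and 4.82 with IgG in GM, and for Unc45b and Xirp1, at mean raw signals of 88.0 and 93.7 with anti-MYF5 and 84.5 and 95.4 with IgG in GM. It also held for Mb, the oxygen store myoglobin, which differed by -0.82 (SE 0.19, adjusted p = 0.014) with GM means of 4.80 and 5.11 and lost its call with cyclic loess (-0.67).

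Myl4 and Acta1 had the opposite limit, DM signals so near the top of the range that a difference there could be compressed, which was not tested. Tpm2 had neither limit of signal range. Its mean raw signals were 1550 with anti-MYF5 and 3318 with IgG in DM, and 614 with anti-MYF5 and 1348 with IgG in GM. Its call did rest on the scaling. Without scaling 0 sarcomere genes were called higher and 8 lower. Under median scaling 1 was higher, Myl4, and 7 lower, so the calls of Acta1 and Tpm2 ended in both settings. Myl4 (ILMN_2610744) had 14.81, 14.75, 14.66 and 14.81 with anti-MYF5 in DM against 14.60, 14.66, 14.64 and 14.66 with IgG, and 6.70, 6.53, 6.35 and 6.40 with anti-MYF5 in GM against 8.01, 7.81, 7.96 and 7.86 with IgG. Its groups were apart in GM only. In DM it ranked 8 from the top of all probes with anti-MYF5 and 13 with IgG, and Acta1 ranked 5 in both, with mean raw signals of 26472 ± 1648 and 29449 ± 961 (SD, n = 4 each) where the highest signal of any probe on an array was 30647 to 41353. Myl1 (1.86, adjusted p = 0.051) and Mylpf (1.16, adjusted p = 0.11), 2 more light chains, also lay among the brightest probes in DM and were not called. The number of called sarcomere genes moved with single arrays, to 1 higher without anti-MYF5 array 3 in DM and to 7 lower without IgG array 4 in GM.

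**Figure D3:**
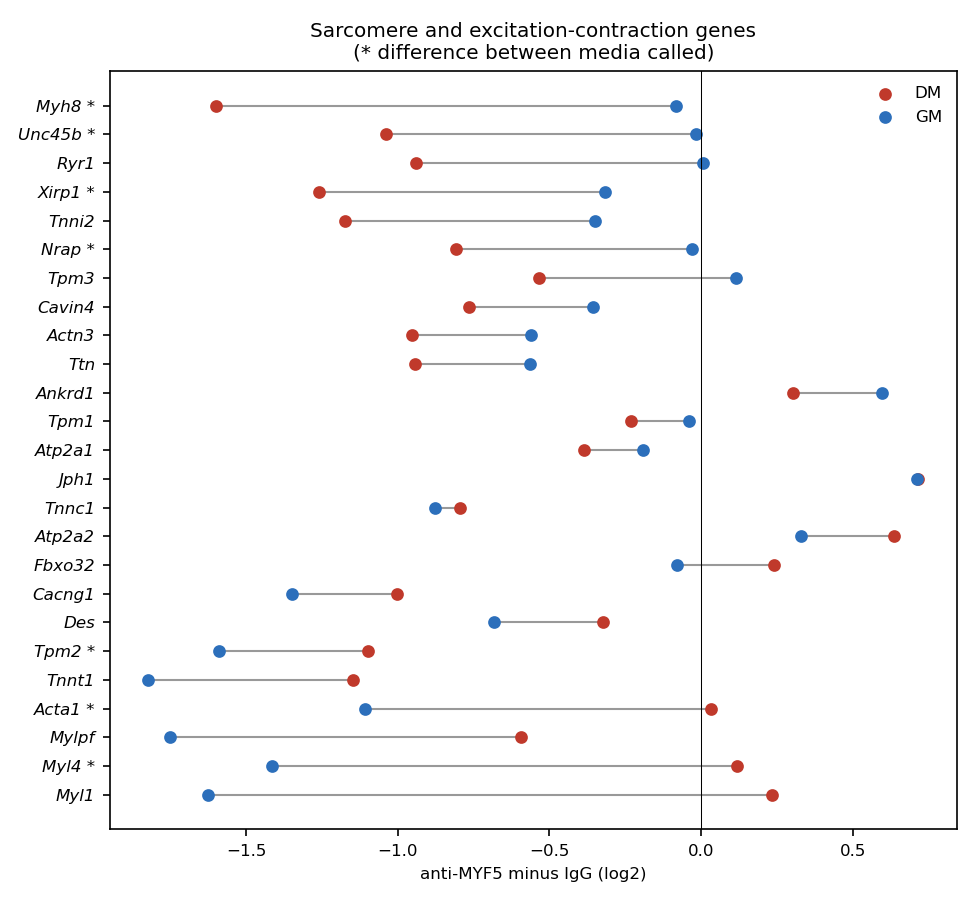
Anti-MYF5 minus IgG in DM (red) and in GM (blue), in log2, for the 25 sarcomere and excitation-contraction genes among the members, 1 row a gene, joined by a line whose length is the medium dependence. Asterisks mark the 7 genes called. Genes at the top were recovered less in DM and those at the bottom more, and most lie below IgG in both media.

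Ubiquitin and translation genes added further negative differences. Usp19, a deubiquitinase anchored at the ER, had 7.33, 7.22, 7.20 and 7.67 with anti-MYF5 in DM against 8.77, 8.52, 8.97 and 8.69 with IgG, and overlapping groups in GM, at 6.29 to 6.61 with anti-MYF5 and 6.17 to 6.72 with IgG (difference -1.40, SE 0.21, adjusted p = 2.8e-04). Usp19 and Usp5 (-0.72, adjusted p = 0.034) were the 2 of 28 ubiquitin-specific proteases called, both lower, though Usp5 lost its call without any 1 of 11 arrays and with no filter. Of 45 translation factors, 4 were lower (Eif3c at -0.93, Eif3b at -0.80, Eif3i and Eif4h) and 1 higher (Eif4e2, a cap-binding repressor, at 0.54). Wars, the tryptophanyl-tRNA synthetase, was the 1 of 20 tRNA synthetases called, at -0.93 (SE 0.20, adjusted p = 0.0096), and its 3 dimmer probes, uncalled, gave -0.76, -0.59 and -0.20. Proteasome (33 genes), cholesterol synthesis (18), Rnf ligases (40) and the IGF system (9) had 0 genes called in either direction by limma. At an unadjusted p under 0.05 the higher and lower counts in these lists were 2 and 4, 0 and 1, 2 and 6, and 1 and 2. Over all member probes, 2372 of 11831 passed that limit.

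Most genes of the mitochondrial respiratory chain and of ribosomes were recovered below IgG, 59 of 71 and 35 of 57 in DM and 60 of 71 and 39 of 57 in GM, and those called for a difference were mostly less depleted in DM. Of 71 nuclear-encoded oxidative phosphorylation genes, 11 were higher in DM and 1 lower (Atp5b, at -0.70), and the median was 0.26. Of these 11, 10 were below IgG in both media, among them the complex I subunit Ndufa3 (-1.37 in DM and -2.14 in GM) and the complex IV subunit Cox6b1 (-1.49 in DM and -2.18 in GM). Ndufa4 had 10.23, 10.34, 10.17 and 11.04 with anti-MYF5 in DM against 11.06, 10.79, 11.01 and 11.10 with IgG, and 10.98, 11.23, 11.11 and 11.26 with anti-MYF5 in GM against 12.99, 12.77, 12.74 and 12.52 with IgG. The groups were apart in GM and overlapped in DM, and the difference was 1.06 (SE 0.21, adjusted p = 0.0056). The other one, Atp5g2, a subunit of the ATP synthase ring, differed by 0.97 (SE 0.25, adjusted p = 0.024), a call that ended when any 1 of 6 arrays was left out.

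Of 57 cytosolic ribosomal protein genes, 9 were higher and 0 lower, with a median of 0.27, and at an unadjusted p under 0.05 there were 21 and 1. Rps13 led with 0.78 (SE 0.18, adjusted p = 0.013), at 0.60 log2 below IgG in DM and 1.38 below it in GM, and Rpl14 followed with 0.76 (SE 0.19, adjusted p = 0.024). With anti-MYF5 in DM, Rpl14 was close to the floor, at raw signals of 66.7 to 79.4, so its measured difference is limited by the signal range. Of 69 mitochondrial ribosomal protein genes, 4 were higher, led by Mrpl34 at 0.79 and Mrpl30 at 0.72, and 1 lower (Mrps27 at -0.69). Median scaling and no scaling each ended the calls of Rpl14, Mrpl34 and Mrpl30, and leaving out any 1 of 3 arrays ended that of Rpl14 and any 1 of 4 that of Mrpl30. The call of Rpl14 also ended in the z-scores and with no filter. Without scaling the oxidative phosphorylation median was -0.14 with 0 genes higher, and the cytosolic ribosomal median 0.01 with 0 higher, but relative to the median of all members these lists stood at 0.28 and 0.43. Such a median was not particular to these lists. A housekeeping reference list of 9 member genes, 0 higher and 1 lower, had a median of 0.29. Without scaling it stood at 0.31 relative to all members. The count of higher oxidative phosphorylation genes was 1 without anti-MYF5 array 1 in GM, and that of higher cytosolic ribosomal genes 4 without IgG array 2 and 14 without IgG array 4 in GM.

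**Figure D4:**
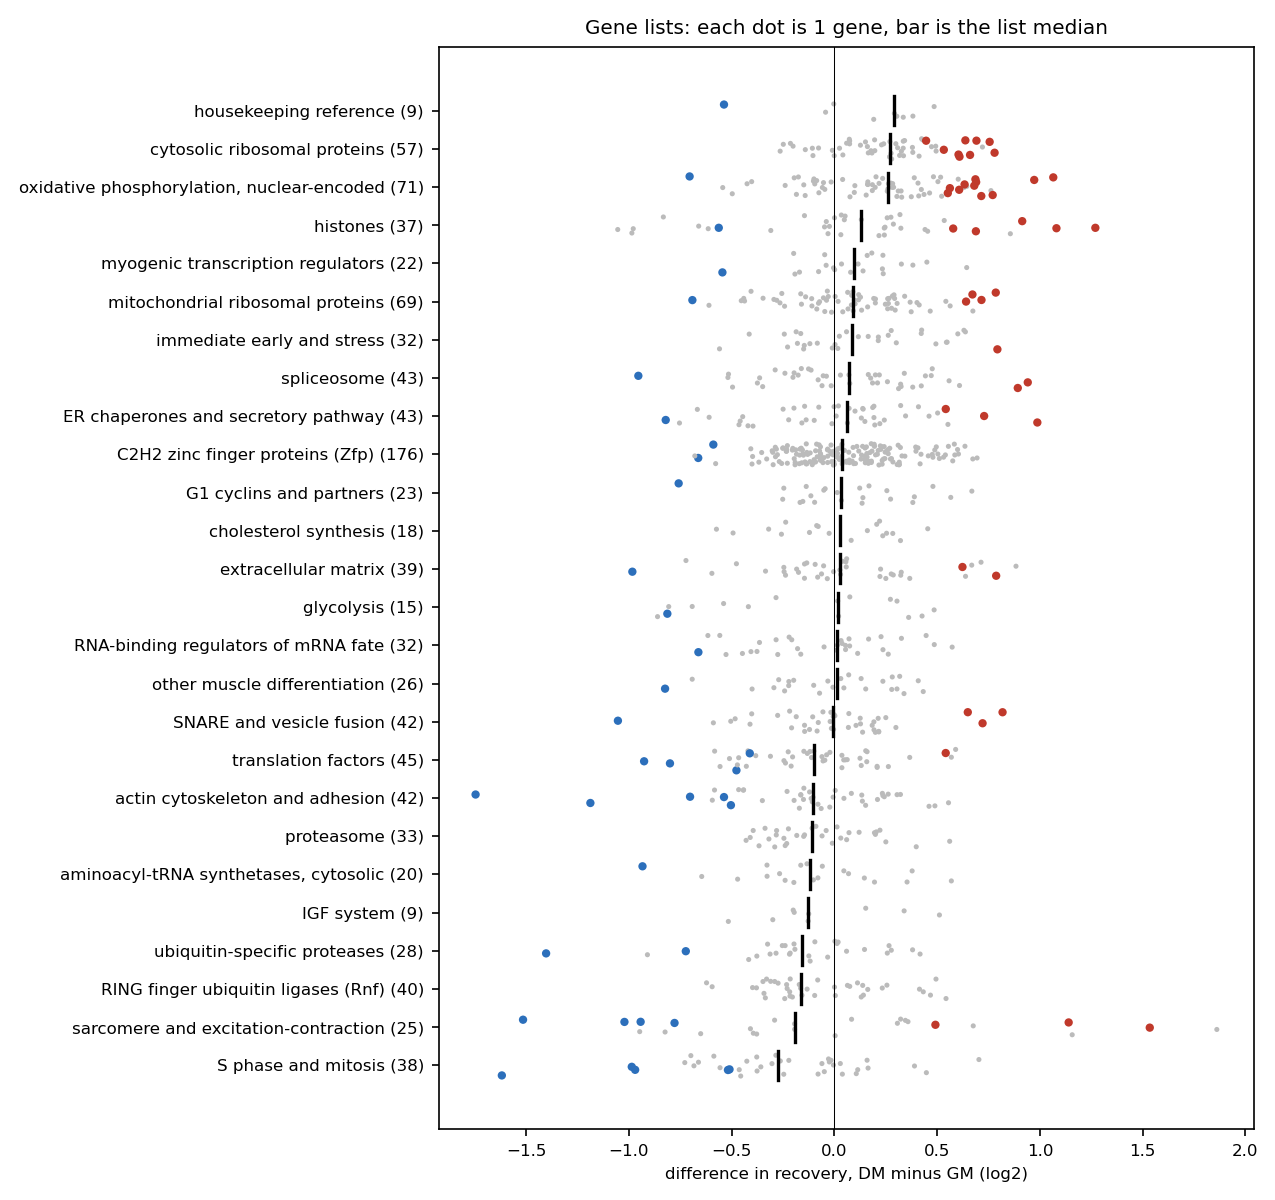
Medium dependence (DM minus GM, log2) of each member gene in the lists with at least 5 members, ordered by list median, which is the black bar. Numbers in parentheses are member genes, red dots genes called higher in DM and blue dots genes called lower. Families assembled after the values were seen are not drawn. Of the lists drawn, S phase and mitosis has the lowest median, at -0.27.

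Histone mRNAs, many of which lack the poly(A) tail that the oligo-dT labelling primes from, had 5 of 37 members higher and 1 lower (H1f2, at -0.56), with a median of 0.13. H2ac21 had 5.35, 5.57, 5.03 and 5.15 with anti-MYF5 in DM against 6.59, 6.96, 6.68 and 7.03 with IgG, and 7.38, 7.67, 7.92 and 7.91 with anti-MYF5 in GM against 10.59, 10.72, 10.36 and 10.45 with IgG. It lay below IgG without overlap in both media, 2.91-fold in DM and 7.01-fold in GM (difference 1.27, SE 0.21, adjusted p = 0.0011). With anti-MYF5 in DM, H2ac21 was close to the floor, at raw signals of 70.8 to 92.9, so its measured difference is limited by the signal range. Its call ended with no scaling. H3c6 differed by 1.08 (SE 0.27, adjusted p = 0.023), and median scaling (0.82), no scaling or the loss of any 1 of 3 arrays ended that call. With median scaling the histone counts were 1 higher and 5 lower, the reverse of those after quantile normalization, and without scaling the median was -0.18.

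Genes of the Golgi, the ER and vesicle traffic were called in both directions. Gcc2, a golgin that tethers vesicles at the trans-Golgi, had 9.06, 8.70, 8.68 and 8.62 with anti-MYF5 in DM against 9.35, 8.85, 9.23 and 8.83 with IgG, and 8.17, 8.25, 7.86 and 7.99 with anti-MYF5 in GM against 10.15, 9.76, 10.12 and 9.50 with IgG. Its groups overlapped in DM and were apart in GM, with a difference of 1.51 (SE 0.22, adjusted p = 2.8e-04). Dpm3, which anchors the dolichol-phosphate-mannose synthase, differed by 1.15 (SE 0.19, adjusted p = 0.001). Kdelr2, a receptor that returns escaped chaperones to the ER, had 9.25, 9.56, 9.51 and 9.44 with anti-MYF5 in DM against 8.52, 8.75, 8.31 and 8.51 with IgG, with overlap in GM (difference 0.99, SE 0.19, adjusted p = 0.0043).

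Of 43 ER and secretory genes, 3 were higher and 1 lower (Copa, a COPI coat subunit, at -0.82, adjusted p = 0.021), with a median of 0.06. Of 42 SNARE and vesicle fusion genes, 3 were higher, among them Vamp5 at 0.82, and 1 lower (Stx2, at -1.05, adjusted p = 0.027), with a median of -0.0050. At an unadjusted p under 0.05, 7 were higher and 6 lower in the first list and 3 higher and 5 lower in the second. The call of Copa ended when any 1 of 4 arrays was left out, and that of Stx2 when any 1 of 5 was left out and with no filter on dim probes. With IgG in DM, Stx2 was close to the floor, at raw signals of 61.8 to 72.7, so its measured difference is limited by the signal range. Tmem107, a protein of the ciliary transition zone, differed by 1.14 (SE 0.25, adjusted p = 0.012) at its brightest probe and by 0.19 and 0.43, uncalled, at 2 others. Pde4dip, which anchors proteins at centrosome and Golgi, differed by 1.16 (SE 0.21, adjusted p = 0.0019) at 1 probe, and 2 other probes, uncalled, gave 0.51 and -0.34. Median scaling and no scaling each ended the calls of Kdelr2, Vamp5, Tmem107 and Pde4dip, and under median scaling 0 of the 43 ER and secretory genes were higher and 3 lower.

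Among regulators, Ccnd1, the cyclin D1 mRNA named in the series title, showed no medium dependence past the threshold. Its 3 probes differed by -0.04 (SE 0.18, adjusted p = 0.92), -0.02 (SE 0.35, adjusted p = 0.98) and 0.02 (SE 0.15, adjusted p = 0.96). Its brightest probe had 10.73, 10.91, 10.93 and 10.64 with anti-MYF5 in DM against 10.18, 10.43, 10.50 and 10.08 with IgG, and 14.05, 13.85, 14.00 and 13.49 with anti-MYF5 in GM against 13.38, 13.21, 13.46 and 13.15 with IgG. The recovery over IgG was 0.50 in DM and 0.55 in GM, at levels that were several log2 units apart.

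The G1 genes as a list also gave few calls: 0 of 23 were higher and 1 lower (2 and 1 at an unadjusted p under 0.05), Tfdp2, a DNA-binding partner of E2F factors, at -0.76 (SE 0.17, adjusted p = 0.013), with its other 2 probes uncalled. Of 22 myogenic regulators 1 was called, Tcf12, the E-protein partner of myogenic factors, at -0.54 (SE 0.16, adjusted p = 0.047), and the call was lost when any 1 of 13 arrays was left out, with no filter, and with only members or only probes detected on all arrays tested. Jun, an AP-1 subunit, was the 1 of 32 immediate early and stress genes called, at 0.79 (SE 0.22, adjusted p = 0.039), a call that ended with median scaling, no scaling, the z-scores, no filter, only members tested or the loss of any 1 of 8 arrays. In the spliceosome, Snrpg, a core protein of snRNPs, was higher by 0.94 (SE 0.16, adjusted p = 0.0013), as was Lsm7, and Sf3a1 of the branch-site complex was lower by -0.95 (SE 0.22, adjusted p = 0.015), out of 43. Sfpq at -0.66 was the 1 called of 32 RNA-binding regulators, Hk1 at -0.81 of 15 glycolysis genes, and Zfp658 (-0.66) and Zfp623 (-0.59) of 176 Zfp genes. The call of Hk1 was lost without any 1 of 10 arrays and with no filter. Those of both zinc finger genes were lost without any 1 of 8, that of Zfp623 also with median scaling, and that of Zfp658 also with cyclic loess, no filter and only members tested.

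In the extracellular matrix list, 2 of 39 were higher and 1 lower. Timp3, an inhibitor of matrix metalloproteinases, was higher by 0.79 (SE 0.18, adjusted p = 0.014), and Col3a1, a fibrillar collagen, lower by -0.98 (SE 0.28, adjusted p = 0.045). The call of Timp3 ended with median scaling and with no scaling, and its other probe, uncalled, gave 0.43. That of Col3a1 ended without any 1 of 10 arrays, with cyclic loess, with no filter, with only members or only probes detected on all arrays tested and with no intensity trend, and its other probe was not called. Some markers of other cell types on the array were members: 4 of 11 adipocyte and 3 of 12 bone and cartilage genes. So were 2 of 9 blood and endothelial and 2 of 11 neuron, liver and epithelial genes. Over all genes on the array, 8139 of 16590 were members. Of these marker genes 1 was called, Sox9, a cartilage regulator, at 0.79 (adjusted p = 0.017).

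Where a gene had several member probes, the probes seldom disagreed in direction. Beside 105 called genes, 152 of 160 further probes had the sign of the brightest one, 49 were called the same way and 0 the opposite way.

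**Figure D5:**
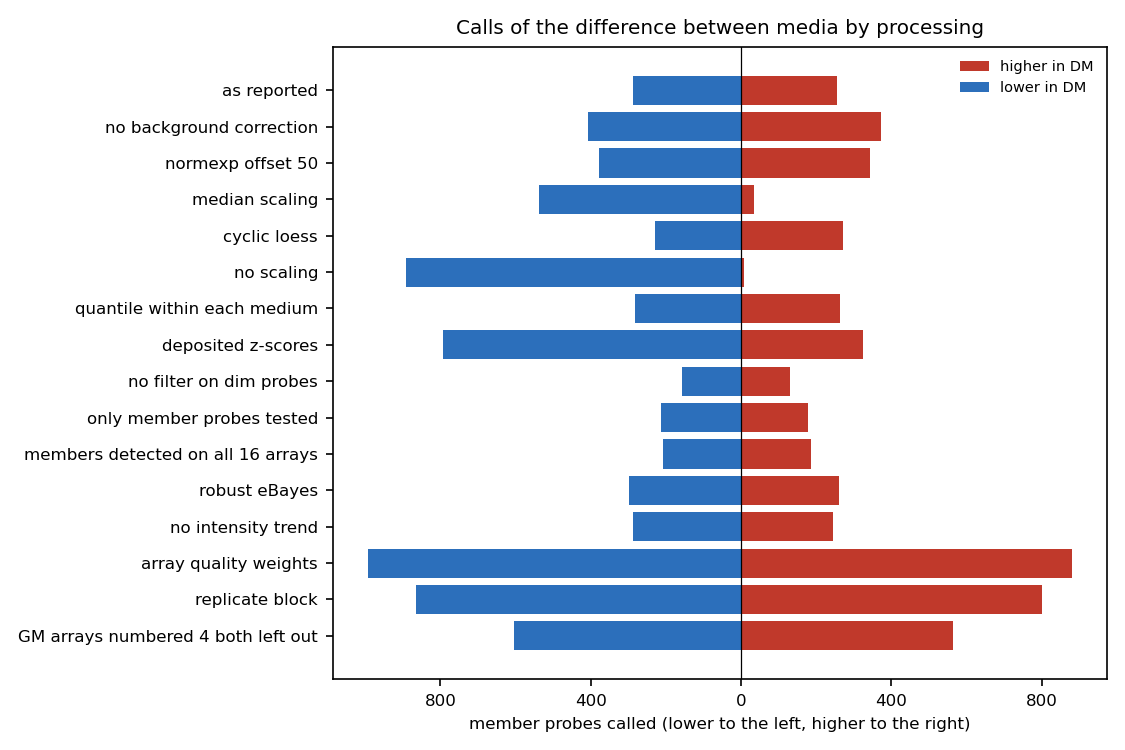
Member probes called for medium dependence under each processing, with those lower in DM drawn to the left of 0 and those higher to the right. Quantile normalization as reported gives 255 higher and 288 lower, median scaling 35 and 537, and no scaling 7 and 892.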

How the data were processed

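The deposited table holds intensities and detection p-values of 25697 probes on 16 arrays, per the file headers, made with GenomeStudio 2011.1 per the submitters' processing notes and not normalized. The deposited series values are a score, the z-score of log10 intensity within an array to within 5.0e-10. Intensities were background-corrected (normexp, offset 16, controls inferred from detection p-values), transformed to log2 and quantile-normalized, then fitted with lmFit and eBayes with trend over 4 groups of 4 arrays (limma 3.58.1, R 4.3.3, 12 residual degrees of freedom). Benjamini-Hochberg adjustment ran over 13884 probes detected on at least 4 of 16 arrays, at a threshold of 0.05. The offset shrinks log2 differences of dim probes. The number of arrays limits the precision. Gene names came from the platform annotation for 23978 probes, 23962 of them updated through Entrez identifiers with GRCm38.p6, and 1719 probes had none.

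A gene stands by its brightest member probe. Named genes were the 10 largest called differences in each direction, up to 6 per direction with opposite calls in the 2 media, up to 2 called genes per list, and Ccnd1, Myf5 and Actb. Further list members beside a count were chosen after their values were seen. The members and lists were chosen with earlier results of these data known, and list patterns for histones and translation factors were corrected with the array's names in view. Alternatives covered background, scaling, filters, variance, weights, a replicate block, other probes and each array left out.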

Additional observations from a re-analysis of the deposited data

Results flagged for a closer look

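The difference between media was itself the test for 255 member probes that were higher and 288 that were lower in DM. Among 260 groups of 4 arrays examined, 10 held an array far from the others, and chance flags about 1 in 20 groups. For such an array, the gap to its nearest neighbour, divided by the range of the 4 values, exceeded Dixon's critical value for 4 samples. With anti-MYF5 in DM, array 4 was high for Actn4 (10.37, others 9.45 to 9.49) and Dbn1 (9.2, others 8.51 to 8.61) and low for Tma7 (7.26, others 8.08 to 8.1). With IgG in DM, array 3 was high for Eif3b (9.38, others 9.16 to 9.19), array 2 was low for Zfp658 (5.66, others 5.89 to 5.92) and high for Atp5g2 (10.34, others 9.95 to 9.99), and array 4 was low for Ccnd1 probe ILMN_2669793 (5.91, others 7.21 to 7.44). With anti-MYF5 in GM, array 4 was high for Denn2b (11.16, others 10.75 to 10.79) and Gzmd (5.23, others 4.78 to 4.84), and array 2 was low for Actb probe ILMN_2698799 (13.32, others 13.51 to 13.53). All values are normalized log2 signals.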

How the results depend on the processing

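Of 543 reported calls, 0 were called in the opposite direction under any alternative run. As reported, 255 members were higher and 288 lower in DM, 42 had opposite calls in the 2 media and 80 list genes were called. Median scaling gave 35 and 537, with 2279 members above IgG in DM. No scaling gave 7 and 892, with 1978 members above IgG in DM and 1082 below it in GM. The deposited z-scores gave 324 and 792, with 65 opposite calls and 153 list genes. No filter gave 131 and 156, with 20 and 47. Array quality weights gave 880 and 993, with 96 and 235. Leaving out both GM arrays numbered 4, a setting chosen after seeing the data, gave 565 and 604, with 68 and 155. Leaving out 1 array gave 125 to 497, 128 to 555, 23 to 60 and 40 to 137 for the same 4 counts, and moved the higher count by over 1.5 times for 9 of the 16 arrays (anti-MYF5 2 and 3 and IgG 1 and 3 in DM, anti-MYF5 1 and 3 and IgG 1, 2 and 4 in GM) and the lower count for 11 (these and anti-MYF5 1 and 4 in DM). The signs of the Actb probe ILMN_2698799 (0.023 in the z-scores, adjusted p = 0.94) and of the other Pde4dip probe, ILMN_1215884 (-0.34), differed from those reported. Apart from fewer arrays, the cause was not tested.

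With the replicate number as a replicate block within each medium, 800 members were higher and 866 lower, with 89 opposite calls and 201 list genes, and all 543 calls remained. Same-numbered arrays correlated in their deviations at 0.014 to 0.452 in DM and 0.024 to 0.624 in GM. Arrays of unlike number did so at -0.315 to 0.266 in DM and -0.513 to 0.384 in GM. Not every same-numbered pair exceeded 0.1, so the numbers were not treated as pairs. Of 4 anti-MYF5 arrays, 3 in DM and 2 in GM correlated best with the IgG array of their own number. Of 4 IgG arrays, 3 in DM and 3 in GM correlated best with the anti-MYF5 array of their own number.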

Other observations

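Some gene families were assembled after the values were seen and are given as descriptions. Over all member genes, 2.29% were called higher in DM and 2.36% lower. Of 35 member genes for DEAD and DEAH box RNA helicases, 0 were higher in DM and 6 lower: Dhx37 (-0.84), Dhx29 (-0.83), Ddx54 (-0.80), Ddx51 (-0.76), Dhx30 (-0.75) and Ddx47 (-0.69). The median of the family was -0.37, against 0.02 over all member genes. Of 19 ribosome assembly factors 4 were lower, namely Lsg1 (-0.86), Utp4 (-0.85), Nvl (-0.78) and Utp6 (-0.66), with a median of -0.34.

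Of 17 nucleotide-sugar transporters of the Slc35 family 2 were higher, Slc35b3 at 1.04 (adjusted p = 2.8e-04), which carries the sulphate donor PAPS into the Golgi, and Slc35a5 at 0.68 (adjusted p = 0.04). Slc35b3 was above IgG by 1.5 log2 in DM and 0.45 in GM. The median of the Slc35 family was 0.20. Of 6 unconventional myosins 2 were lower, Myo5a at -1.52 and Myo18a at -0.85, with a median of -0.60.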
